A study of Mus musculus with 6 samples.

Results

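The 10 genes described here set the pace of G1, the phase of the cell cycle between division and DNA synthesis: the D-type cyclin genes Ccnd1, Ccnd2 and Ccnd3, the E-type cyclin genes Ccne1 and Ccne2, the kinase genes Cdk4 and Cdk6, and the inhibitor genes Cdkn1b, Cdkn2a and Cdkn2c. They were chosen by gene symbol, and each matched 1 of the 42365 genes of the count table. RNA was sequenced from cultured mouse cells labelled as neural progenitor cells (NPC), a name for precursors of neurons and glia, in 6 libraries: 2 of clone 2 and 2 of clone 1 labelled as knockout (KO), and 2 of the wild-type parental cells, whose titles call them clone 1 and clone 2. The 2 libraries of a knockout clone are taken here as repeats of that clone. The labels do not say whether each had its own culture. For comparisons of single clones the spread behind the p-values is thus one between libraries and may be technical. Where the clones are the replicates, 1 estimate of spread mixes that between the 2 clones with that between the 2 parental libraries. It may therefore understate the spread between clones. No treatment is named for any group, and the labels leave out how the knockout was made.

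D-type cyclins are made in answer to growth signals and bind CDK4 or CDK6. The complexes phosphorylate the retinoblastoma protein, which then releases E2F transcription factors, and these switch on Ccne1, Ccne2 and the genes of DNA synthesis. Cyclin E with CDK2 carries the cell into S phase. INK4 proteins, here those of Cdkn2a and Cdkn2c, bind CDK4 and CDK6 and keep the D-type cyclins off, while p27, the product of Cdkn1b, binds whole cyclin-CDK complexes. In the developing brain, Ccnd1 and Ccnd2 are the D-type cyclins best known from neural progenitors.

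Levels are given in CPM, the count of a gene scaled to a fixed library total after TMM normalization. A value after ± beside a CPM is the SD (n = 2 libraries), and after a log2 fold change it is the standard error (SE). Library totals ran from 58871554 to 69530032 counts. Genes with a count numbered 31262 and 30747 in clone 2 and 32686 and 32130 in clone 1, against 37678 and 37419 in parental cells. Whether library preparation had a part in this difference was not tested. The genotypes are taken from the labels, so the clones are called labelled knockout or by number. Markers differed widely between the groups. In the parental libraries division markers were lower than in the clones and most astrocyte markers higher. Progenitor markers went both ways between the clones and parental cells. How well the label fits each group was not tested. Of all 24506 genes tested, 13% were called higher and 13.6% lower in the labelled knockout. Of 7 proliferation markers 7 were called higher in the labelled knockout, with a summed level of 684 to 688 CPM in clone 2 and 1040 to 1062 CPM in clone 1, against 55.98 to 57.1 CPM in parental cells; Mki67 was at 277 ± 2.72 and 504 ± 17.1 CPM, against 3.91 ± 0.441, and Ccnb1 and Aurkb were under 1 CPM in both parental libraries. Of 10 astrocyte markers 6 were lower and 1 higher, and their sum was 4055 to 4112 CPM in clone 2 and 3099 to 3152 CPM in clone 1, against 11181 to 11350 CPM in parental cells. Gfap, a filament gene used as an astrocyte marker, had 9.5 and 9.91 CPM in clone 2 and 1.53 and 1.65 CPM in clone 1, against 2663 and 2719 CPM in parental cells. Gja1, an astrocyte gap junction gene, had 1.06 and 1.14 CPM in clone 2 and 0.412 and 0.699 CPM in clone 1, against 435 and 428 CPM in parental cells. These 2 genes had the largest changes of the 10. The others called lower were Aqp4, Apoe, Agt and Slc1a3, with log2 fold changes of -4.75, -3.39, -2.92 and -0.53. S100b was the one called higher (90.1 and 70.5 CPM in clone 2 and clone 1, against 52.4 CPM). Slc1a2 (1567 and 1113 CPM, against 1054 CPM) and Aldoc (887 and 428 CPM, against 683 CPM) were not called. Aldh1l1 was lower in the clones (9.92 and 3.76 CPM, against 18.0 CPM) but was not called either. For 8 oligodendrocyte lineage markers (3 higher, 2 lower) the sum was 6189 to 6454 CPM, 5243 to 5346 CPM and 1290 to 1292 CPM in the same order. Most of it was Olig1 (3957, 3072 and 617 CPM) and Olig2 (1739, 1719 and 412 CPM). These and Cspg4 were the higher ones, and Mbp and Mog the lower. Of 9 neuronal markers 4 were lower and 0 higher, with sums of 1058 to 1080 CPM, 1375 to 1532 CPM and 1081 to 1088 CPM. Most of these sums was Map2 (1035, 1403 and 975 CPM), which was not called. The lower ones were Dcx (8.43, 10.4 and 66.8 CPM), Tubb3, Elavl3 and Stmn2. Of 10 NPC markers 4 were higher and 3 lower, and the sums were 3952 to 3954 CPM, 3385 to 3391 CPM and 3599 to 3601 CPM. The 4 were Fabp7 (606 and 601 CPM in clone 2 and clone 1, against 165 CPM), Nes (186 and 170 CPM, against 79.6 CPM), Hes5 and Notch1. The 3 were Sox1, Msi1 (104 and 106 CPM, against 262 CPM) and Prom1. Sox2, a defining factor of neural progenitors, was present in every group (322 ± 10.9, 308 ± 6.64 and 358 ± 7.02 CPM), whereas Sox1 was at 3.17 ± 0.239 and 3.35 ± 0.145 CPM in the clones, against 60.5 ± 0.0826 CPM in parental cells. The 12 markers of microglia, vessels, fibroblasts and pluripotent cells summed to at most 5.55 CPM in any library, and none of the 12 was without a count in all 6. The part of these shifts in the results below was not tested. In such bulk samples, fewer cells of a type and less RNA per cell cannot be told apart.

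Promoter sequence is shown for Cdk4, Cdk6 and Cdkn2a because their windows were the ones among the members that held a searched word. Windows of 250 bases before a start site, from RefSeq on GRCm38.p6, were found for 7 of the 10 genes (10 windows in all). Ccnd1, Ccnd2 and Ccne2 had no window, so their promoters were not searched. The E-box CACGTG, the word bound by MYC and related factors, and 4 E2F words (TTTGGCGC, TTTGCCGC, TTTCGCGC and TTTCCCGC) were searched on both strands. The E-box reads the same on both strands, and none of the matches found overlapped another. Capitals below mark matches.
Cdk4, chr10:127063285-127063534, plus strand: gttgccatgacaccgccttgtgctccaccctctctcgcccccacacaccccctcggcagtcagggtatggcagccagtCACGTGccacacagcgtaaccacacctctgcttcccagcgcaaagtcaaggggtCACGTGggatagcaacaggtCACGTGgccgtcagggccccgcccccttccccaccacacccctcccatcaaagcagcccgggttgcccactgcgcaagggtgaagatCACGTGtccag
Cdk6, chr5:3343643-3343892, plus strand: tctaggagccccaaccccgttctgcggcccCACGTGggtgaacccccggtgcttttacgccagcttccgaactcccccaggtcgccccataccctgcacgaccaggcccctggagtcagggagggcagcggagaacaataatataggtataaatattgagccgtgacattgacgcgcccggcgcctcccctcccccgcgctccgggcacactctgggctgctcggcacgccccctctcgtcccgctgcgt
Cdkn2a, upstream start site, chr4:89294620-89294869, minus strand: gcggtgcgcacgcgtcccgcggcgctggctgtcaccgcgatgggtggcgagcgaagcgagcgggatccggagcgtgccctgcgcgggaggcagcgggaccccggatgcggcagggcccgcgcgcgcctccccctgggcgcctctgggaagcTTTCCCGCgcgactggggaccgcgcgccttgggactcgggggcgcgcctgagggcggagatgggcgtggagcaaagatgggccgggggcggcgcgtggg
Cdkn2a, downstream start site, chr4:89282193-89282442, minus strand: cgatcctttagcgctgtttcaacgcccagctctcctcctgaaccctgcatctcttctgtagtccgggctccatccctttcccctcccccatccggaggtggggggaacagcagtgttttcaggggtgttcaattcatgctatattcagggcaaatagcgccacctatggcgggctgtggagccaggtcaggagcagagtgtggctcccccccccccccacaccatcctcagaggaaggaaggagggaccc
Cdk4 held 4 E-boxes, which began 172, 118, 98 and 11 bases before its start, and Cdk6 held 1, beginning 220 bases before. Of all 32851 windows of this length 6.02% held an E-box. The upstream window of Cdkn2a, which serves the transcript for ARF, held the E2F word TTTCCCGC 99 bases before its start, and 1.86% of all windows held any of the 4 words. Its downstream window, which serves the transcript for the INK4 protein p16, held none. A match is a description of letters and does not show that a factor binds.

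The comparison of the labelled knockout with parental cells asked how this machinery differed between them, with the 2 clones as replicates of the genotype. The genes for cyclin D1, cyclin D2 and CDK6 were higher by 8.9-fold to 12.2-fold, Cdkn2a was higher by 3.21-fold, Ccne1, Cdkn2c and Cdk4 were higher by smaller folds, and Ccnd3 was lower. In all, 7 of the 10 genes were called higher and 1 lower at an adjusted p under 0.05, and 2 were not called. Without parental library 1 or 2 the number called was 4 and 5 of the 10, and over all genes it was 2544 and 2529, against 6532 with every library. Among all 24506 genes tested 26.7% were called, 13% higher and 13.6% lower. The median log2 fold change was 1.08 over the 10 genes and 0.03 over all genes tested; all 10 passed the filter on low counts. Libraries of the labelled knockout and of parental cells did not overlap for any of the 10, with 9 genes above and Ccnd3 below, where 56.6% of all genes did not overlap, 27% lying above and 29.6% below.

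**Figure D1:**
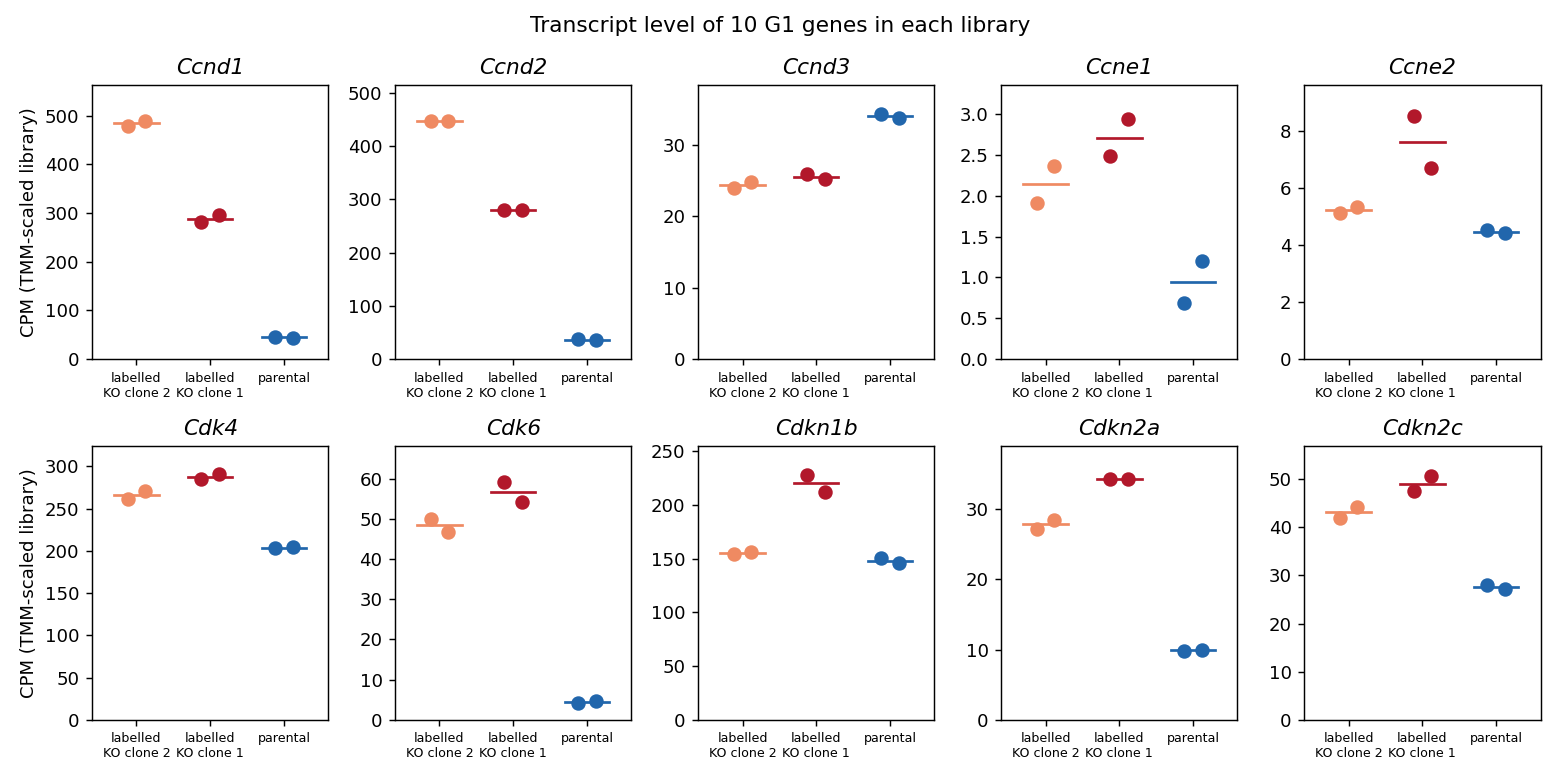
Level of each of the 10 genes in each library, in CPM on a linear axis that starts at 0 and differs between panels. Points are libraries, bars the mean of 2, with labelled knockout clone 2 left of clone 1 and parental cells on the right. Ccnd1, Ccnd2 and Cdk6 are far lower in the parental libraries, and Ccnd3 is the gene whose parental libraries lie above those of both clones.

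Among the D-type cyclins, 2 were far higher in the clones and the remaining gene was lower. Ccnd1 (ENSMUSG00000070348.5, chr7:144929931-144939925, minus strand, GRCm38), which encodes cyclin D1, had 478 and 490 CPM in clone 2 and 282 and 295 CPM in clone 1, against 45.4 and 43.4 CPM in parental cells. Every labelled knockout library was thus several times above both parental ones, and the clones did not overlap each other. With the clones as replicates Ccnd1 rose by 3.15 ± 0.27 on the log2 scale, or 8.9-fold (adjusted p = 0.00158). LTO1, whose exons overlap on the opposite strand, was at 10.6, 9.07 and 13.6 CPM in clone 2, clone 1 and parental cells.

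Ccnd2 (ENSMUSG00000000184.12, chr6:127125162-127152193, minus strand), which encodes cyclin D2, had 447.7 and 447.2 CPM in clone 2 and 279.4 and 279.3 CPM in clone 1, against 37.1 and 35.6 CPM in parental cells. The 2 libraries of a clone lay almost on top of each other. Ccnd2 rose by 3.36 ± 0.25, or 10.2-fold (adjusted p = 0.000999). Ccnd3 (ENSMUSG00000034165.16, chr17:47505051-47599691, plus strand), the D-type cyclin gene known for its part in blood cells, had 24.0 and 24.8 CPM in clone 2 and 25.8 and 25.2 CPM in clone 1, against 34.4 and 33.8 CPM in parental cells. Its libraries fell into 2 narrow bands without overlap. The log2 fold change was -0.42 ± 0.097, a 1.34-fold lower level (adjusted p = 0.0305); without parental library 1 or 2 the adjusted p was 0.397 and 0.353, over a range of 1.2e-06 to 0.397 in 14 alternatives. Exons of Ccnd3 overlap Bysl on the opposite strand (21.8, 16.3 and 22.7 CPM in clone 2, clone 1 and parental cells), and without a stated strand setting their shared reads cannot be told apart.

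The make-up of the D-type cyclin transcripts differed as well. On a scale of CPM per kilobase of exon, which allows genes to be compared, the 3 genes summed to 153 ± 1.74 in clone 2 and 93.8 ± 1.98 in clone 1, against 17.2 ± 0.463 in parental cells. Ccnd3 made up 1.81% ± 0.0216 of that sum in clone 2 and 3.1% ± 0.122 in clone 1, against 22.6% ± 0.338 in parental cells. Ccnd1 held 67.1% ± 0.357 and 65.3% ± 0.80 in the clones, against 54.9% ± 0.292, and Ccnd2 held 31.1% ± 0.378 and 31.6% ± 0.678, against 22.5% ± 0.0456. Ccnd1 was thus the largest part in all 6 libraries. With the length of the longest transcript in place of all exons, the share of Ccnd3 was 3.06% and 5.17%, against 33.4%; all its exons span 8775 bases and that transcript 3858.

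The kinase genes were both higher, by very different folds. Cdk6 (ENSMUSG00000040274.11, chr5:3341485-3531008, plus strand) had 50.01 and 46.8 CPM in clone 2 and 59.3 and 54.2 CPM in clone 1, against 4.24 and 4.6 CPM in parental cells. It was the member with the largest log2 fold change, 3.60 ± 0.13 or 12.2-fold (adjusted p = 0.000217). Cdk4 (ENSMUSG00000006728.12, chr10:127063534-127067920, plus strand), whose product is the other partner of the D-type cyclins, had 261 and 271 CPM in clone 2 and 285 and 291 CPM in clone 1, against 203.7 and 204.0 CPM in parental cells. All 4 labelled knockout libraries lay above both parental ones, but by far less than for Cdk6. Cdk4 rose by 0.47 ± 0.086, or 1.39-fold (adjusted p = 0.0152), and without parental library 1 or 2 the adjusted p was 0.259 and 0.263 (1.81e-08 to 0.263 over 14 alternatives). Its exons overlap Tspan31 on the opposite strand, which was at 68.6, 73.98 and 66.8 CPM in clone 2, clone 1 and parental cells. Per kilobase of exon Cdk4 still exceeded Cdk6 everywhere: the ratio of Cdk4 to Cdk6 was 23.7 ± 1.76 in clone 2 and 21.9 ± 1.69 in clone 1, against 199 ± 11.2 in parental cells.

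The E-type cyclin genes were low in every library. Ccne1 (ENSMUSG00000002068.16, chr7:38097984-38107534, minus strand), which encodes cyclin E1, had 1.92 and 2.37 CPM in clone 2 and 2.49 and 2.94 CPM in clone 1, against 0.686 and 1.2 CPM in parental cells. The parental values rest on 44 and 71 counts, and their spread was the widest, for its size, of the 10 genes. Ccne1 rose by 1.40 ± 0.33, or 2.63-fold (adjusted p = 0.0315), and without parental library 1 it did not pass (1.05 on the log2 scale, adjusted p = 0.185; 3.37e-05 to 0.185 over 13 alternatives). Ccne2 (ENSMUSG00000028212.16, chr4:11191351-11204779, plus strand), which encodes cyclin E2, had 5.13 and 5.35 CPM in clone 2 and 8.54 and 6.72 CPM in clone 1, against 4.52 and 4.41 CPM in parental cells. Its groups did not overlap, yet clone 2 lay close to parental cells, and Ccne2 was not called with the clones as replicates (0.56 ± 0.22, adjusted p = 0.126). Exons of Ccne2 overlap Ints8 on the opposite strand, which was several times higher (38.6, 48.2 and 43.6 CPM in clone 2, clone 1 and parental cells). Summed per kilobase, the E-type cyclin genes reached 2.31 ± 0.165 CPM in clone 2 and 3.2 ± 0.248 in clone 1, against 1.63 ± 0.116 in parental cells.

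**Figure D2:**
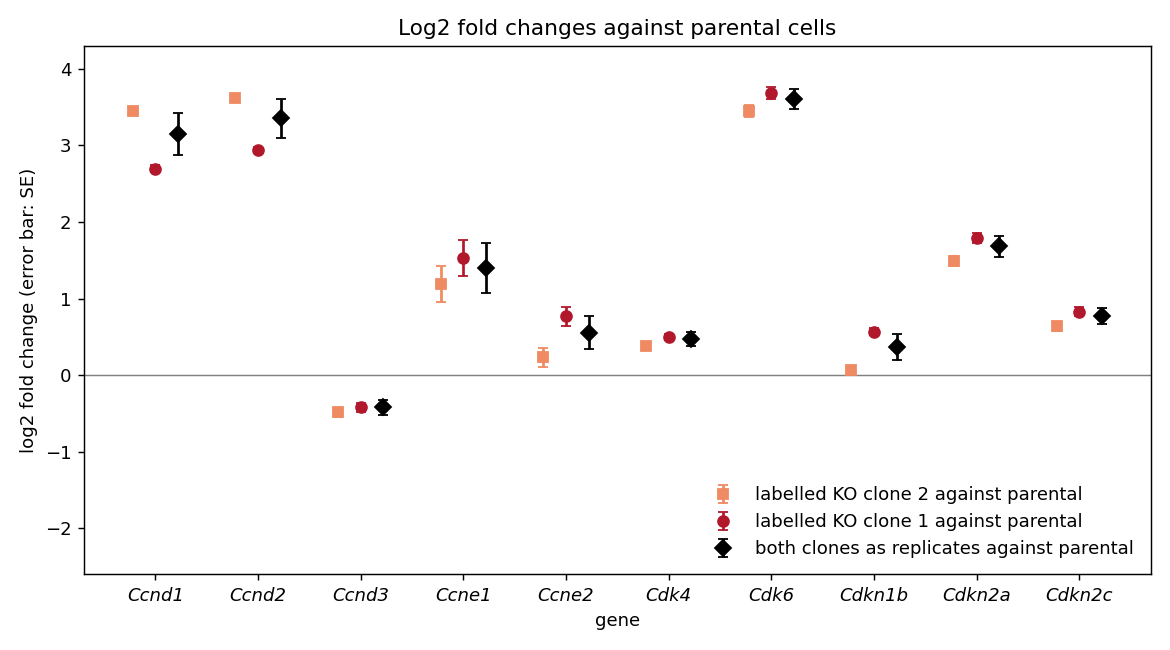
Log2 fold change against parental cells of the 10 genes, with its SE, for labelled knockout clone 2 (squares), clone 1 (circles) and both clones as replicates (diamonds). Cdk6, Ccnd2 and Ccnd1 lie between 2.70 and 3.68, Ccnd3 lies below 0 in each comparison, and Cdkn1b in clone 2 is at 0.07.

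Of the 3 inhibitor genes, Cdkn2a and Cdkn2c were higher and Cdkn1b was not called. Cdkn2a (ENSMUSG00000044303.6, chr4:89274471-89294653, minus strand) makes p16, an INK4 inhibitor, and ARF, which acts on p53 through MDM2, from separate start sites with shared exons; counts per gene cannot tell them apart. It had 27.2 and 28.5 CPM in clone 2 and 34.21 and 34.24 CPM in clone 1, against 9.82 and 9.96 CPM in parental cells. Cdkn2a rose by 1.68 ± 0.14, or 3.21-fold (adjusted p = 0.00121).

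Cdkn2c (ENSMUSG00000028551.14, chr4:109660876-109667189, minus strand), which encodes the INK4 inhibitor p18, had 41.9 and 44.3 CPM in clone 2 and 47.5 and 50.6 CPM in clone 1, against 28.1 and 27.2 CPM in parental cells. It rose by 0.77 ± 0.11, or 1.70-fold (adjusted p = 0.00641); without parental library 1 or 2 the adjusted p was 0.0832 and 0.102 (2.54e-09 to 0.102 over 14 alternatives). Cdkn1b (ENSMUSG00000003031.14, chr6:134920401-134925513, plus strand), which encodes p27, had 154 and 156 CPM in clone 2 and 228 and 212 CPM in clone 1, against 151 and 145 CPM in parental cells. Clone 1 stood apart, clone 2 lay just above the parental libraries, and with the clones as replicates Cdkn1b was not called (0.37 ± 0.17, adjusted p = 0.17). Per kilobase, the ratio of Cdk4 plus Cdk6 to Cdkn2a plus Cdkn2c was 2.14 ± 0.0231 in clone 2 and 1.95 ± 0.0138 in clone 1, against 3.37 ± 0.0297 in parental cells. The ratio of the D-type cyclin sum to Cdkn1b went the other way, with 4.49 ± 0.0112 in clone 2 and 1.95 ± 0.139 in clone 1, against 0.528 ± 0.00121 in parental cells.

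**Figure D3:**
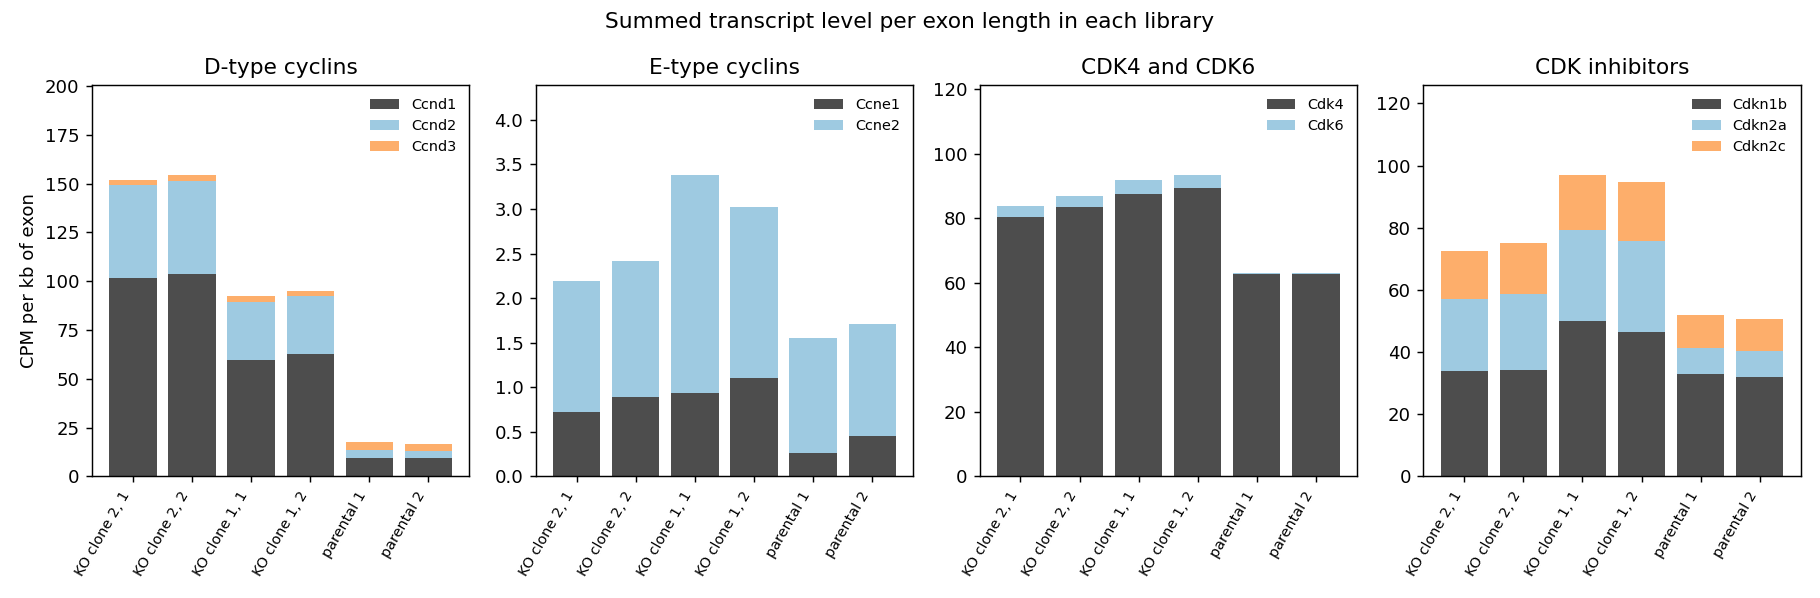
Summed level per exon length of the D-type cyclin, E-type cyclin, CDK4 and CDK6, and inhibitor genes in each library, in CPM per kilobase of exon on linear axes that start at 0; colours show the share of each gene. The D-type cyclin sum is 152 and 154 in clone 2 and 92.4 and 95.2 in clone 1, against 17.5 and 16.8 in parental cells.

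The order of the levels per kilobase of exon differed between the groups. In clone 2 Ccnd1 led (103 CPM per kilobase), followed by Cdk4 (81.9), Ccnd2 (47.6), Cdkn1b (34.1), Cdkn2a (23.8), Cdkn2c (16.0), Cdk6 (3.46), Ccnd3 (2.78), Ccne2 (1.5) and Ccne1 (0.805). In clone 1 Cdk4 led with 88.6, ahead of Ccnd1 (61.2), Cdkn1b (48.3), Ccnd2 (29.7) and Cdkn2a (29.2), and the order of the other 5 was that of clone 2. In parental cells Cdk4 (62.7) and Cdkn1b (32.5) led, Cdkn2c (10.3), Ccnd1 (9.43) and Cdkn2a (8.44) followed, and Cdk6 was last at 0.316. Neighbours whose libraries overlapped were Ccnd3 and Ccnd2, and Ccne1 and Cdk6, both pairs in parental cells. Parts of this order depend on the length used, as an alternative chosen after seeing the data showed. With the longest transcript of each gene, Cdk4 (127 and 132) and Ccnd1 (128 and 131) overlapped at the top in clone 2. Ccnd3 then stood above Cdk6 in clone 2 (6.31 and 4.2) and in clone 1 (6.61 and 4.92), and in parental cells Ccnd1 (11.9) stood above Cdkn2c (11.2) and Ccnd3 (8.83) above Ccnd2 (5.74) without overlap.

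Each clone was also compared with parental cells, using all 6 libraries. These comparisons share the parental libraries and the estimate of spread. The 2 libraries of clone 1 differed most from each other. The chi-square per gene for equal proportions in the 2 libraries was 24.8 in clone 1, 5.33 in clone 2 and 3.78 in parental cells. In the shared fit the spread of clone 1 thus enters the comparison of clone 2 with parental cells as well. In clone 2, 7 of the 10 genes were higher and 1 lower, where 53.5% of 23400 genes were called, 26.7% higher and 26.8% lower; in clone 1, 9 were higher and 1 lower, where 54.5% were called, 27.3% higher and 27.2% lower. Cdk6 rose by 3.45 ± 0.077 in clone 2 and 3.68 ± 0.077 in clone 1, and Cdkn2a by 1.49 ± 0.068 and 1.79 ± 0.068. Ccnd3 fell in each, by 0.48 (SE 0.061) and 0.42 (SE 0.061) on the log2 scale. Ccne2 and Cdkn1b were the genes not called in clone 2 (0.23 ± 0.13, adjusted p = 0.146, and 0.07 ± 0.046, adjusted p = 0.237), and in clone 1 they rose by 0.77 ± 0.12 (adjusted p = 5.9e-05) and 0.57 ± 0.046 (adjusted p = 1.49e-08). Without clone 1 library 1 both passed in clone 2 (adjusted p = 0.0401 for Ccne2 and 0.00845 for Cdkn1b), and without clone 1 library 2 Cdkn1b did (0.041). The difference between the clones was tested directly. Relative to clone 1, clone 2 showed 2 higher and 6 lower among the 10, where 36.4% of all genes were called, 16.1% higher and 20.3% lower. The 2 were Ccnd1, higher by 0.75 ± 0.043 or 1.68-fold (adjusted p = 1.5e-09), and Ccnd2, higher by 0.68 ± 0.041 or 1.60-fold (adjusted p = 2.35e-09). Cdkn1b was lower by 1.42-fold and Ccne2 by 1.45-fold in clone 2 (log2 fold changes of -0.50 ± 0.046 and -0.54 ± 0.12, adjusted p = 3.16e-07 and 0.0024). Cdkn2a, Cdk6, Cdkn2c and Cdk4 were lower in clone 2 by 1.08-fold to 1.23-fold. Of these, Cdk4 missed the threshold without either parental or either clone 2 library (adjusted p = 0.188, 0.191, 0.467 and 0.141), and Cdkn2c without those 4 (0.0636, 0.0644, 0.266 and 0.0648) or clone 1 library 2 (0.0508). Cdk6 missed it without clone 1 library 1 (0.0818) or clone 2 library 2 (0.176). The D-type cyclin genes Ccnd1 and Ccnd2 thus stood higher in the clone with the lower sum of proliferation markers. Ccnd3 (-0.07 ± 0.061, adjusted p = 0.44) and Ccne1 (-0.34 ± 0.21, adjusted p = 0.215) were not called between the clones.

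Of 46 other genes of G1 control, in 6 lists, 45 were tested with the clones as replicates, and 22 were higher and 6 lower. Among all 24506 genes tested 13% were higher and 13.6% lower, so the lower calls were about as frequent as among all genes. Of 8 genes of S phase entry, 8 were higher, among them Ccna2, the cyclin that follows cyclin E (54.4 ± 0.897 CPM in clone 2 and 91.3 ± 0.99 in clone 1, against 1.46 ± 0.0275 in parental cells; 5.67 ± 0.30 on the log2 scale), the mitotic transcription factor gene Foxm1 (3.52 ± 0.18), Mybl2 (2.72 ± 0.22) and Cks1b (1.73 ± 0.12), a partner of the ligase that marks p27 for breakdown. Of 13 genes of pocket proteins and E2F factors 8 were higher and 2 lower. E2f8, E2f2 and E2f1 rose by 4.44 ± 0.31, 3.11 ± 0.30 and 3.07 ± 0.18, and the pocket protein gene Rbl1 by 1.77 ± 0.20. The 2 lower ones were Rb1, the gene of the retinoblastoma protein, and E2f5. Rb1 had 79.8 ± 4.17 and 102 ± 10.8 CPM in clone 2 and clone 1, against 146 ± 3.84 in parental cells. It changed by -0.65 ± 0.13 (adjusted p = 0.0199) and E2f5 by -0.59 ± 0.16 (adjusted p = 0.0485). Both were singled out after their values were seen, and their results with 1 library left out are not given here.

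Of 5 other inhibitor genes 3 were higher and 1 lower, where 13% of all genes were higher and 13.6% lower. Cdkn2b, the INK4 neighbour of Cdkn2a on chromosome 4, went the opposite way from it: it had 1.71 and 1.74 CPM in clone 2 and 1.81 and 1.91 CPM in clone 1, against 7.9 and 8.86 CPM in parental cells, and changed by -2.19 ± 0.17 (adjusted p = 0.000999). Cdkn3, a phosphatase gene whose product acts on CDKs, rose by 3.80 ± 0.36, Cdkn2d by 0.77 ± 0.19 and Cdkn1c by 1.75 ± 0.46; Cdkn2d (adjusted p = 0.0399) and Cdkn1c (0.0438) missed the threshold without parental library 1 (0.214 and 0.185), parental library 2 (0.295 and 0.175) or clone 1 library 2 (0.12 and 0.0656), and Cdkn1c also without clone 2 library 1 (0.0647). Cdkn1a, which encodes the p53-induced inhibitor p21 and was singled out after its values were seen, had 277 and 300.4 CPM in clone 2 and 14.02 and 15.4 CPM in clone 1, against 125.1 and 125.5 CPM in parental cells. The clones lay on opposite sides of the parental libraries, and the difference between the clones was 4.29 ± 0.06 (adjusted p = 4.36e-17).

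Genes of CDK activation and folding were not called: Mnat1, Cdk7, Ccnh and Cdc37 had adjusted p from 0.103 to 0.431 with the clones as replicates. In the fit of single libraries 3 were higher and 1 lower in clone 1, and 1 was higher in clone 2, against parental, where 54.5% of all genes were called in clone 1 and 53.5% in clone 2. Of 7 tested genes of cyclin and p27 breakdown 2 were higher and 1 lower with the clones as replicates, where 13% of all genes were higher and 13.6% lower. Skp2, whose product marks p27 for breakdown, rose by 0.90 ± 0.14, Fbxw7, which does so for cyclin E, rose by 0.74 ± 0.11, and Fbxo4 changed by -1.001 ± 0.13. Among 8 upstream regulators, Ezh2, a Polycomb enzyme gene known for silencing Cdkn2a, rose by 0.94 ± 0.15, while Cbx7, a Polycomb gene with the same known role, changed by -0.72 ± 0.14 and Foxo1 by -0.61 ± 0.15. Myc, an inducer of Ccnd2 and Cdk4 in other cells, was at 100.3 ± 6.36 CPM in clone 2 and 107 ± 2.84 in clone 1, against 122 ± 2.7 in parental cells, and was not called (-0.20 ± 0.085, adjusted p = 0.144). Of the breakdown and upstream genes named as called, Fbxo4 kept its call without parental library 2 and lost it without library 1 (adjusted p = 0.0937), and Fbxw7, Skp2, Ezh2, Cbx7 and Foxo1 missed the threshold without either (adjusted p from 0.0539 to 0.223).

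**Figure D4:**
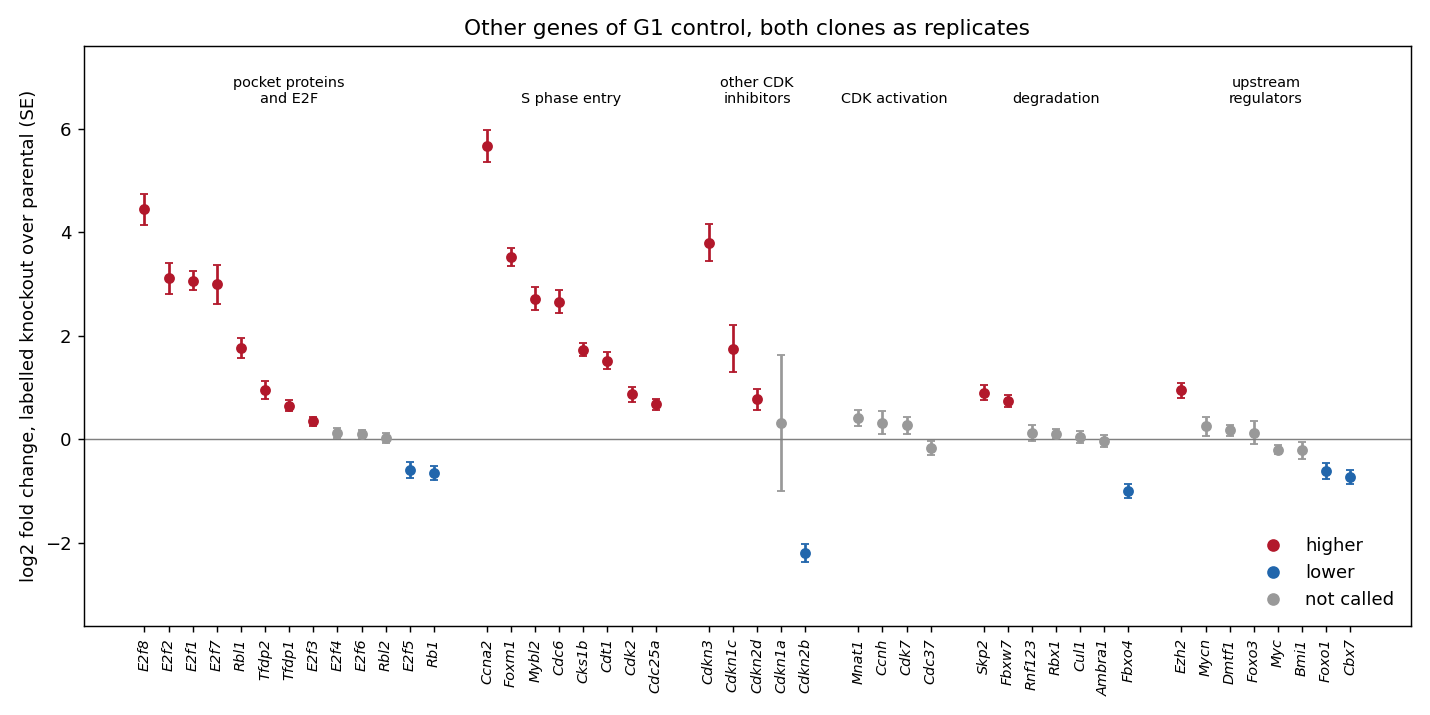
Log2 fold change, labelled knockout over parental, and its SE for the 45 tested genes of the 6 lists, with the clones as replicates; colours mark genes called higher, lower or not called at an adjusted p of 0.05. All 8 genes of S phase entry lie above 0, Ccna2 at 5.67 the highest, and Cdkn2b at -2.19 is the lowest of all.

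For each of 9 genes (Ccne1 was too low) the closest profile over the 6 libraries was sought among 10504 genes of at least 5 CPM, by the distance between log2 CPM values centred on their mean. Zfp469 was closest to both Ccnd1 (distance 0.148) and Ccnd2 (0.20), with a mean of 110.2 CPM in clone 2 and 62.0 CPM in clone 1, against 9.13 CPM in parental cells. Grm5, a glutamate receptor gene, was closest to Cdk6 (distance 0.187), with 403 and 472 CPM in the clones, against 41.0 CPM. Pdzrn4 was closest to Cdkn2a, Smoc1 to Cdkn2c, Tnfrsf22 to Cdkn1b, Vash2 to Cdk4, Trit1 to Ccnd3 and Zfp758 to Ccne2, at distances of 0.0221 to 0.0722. The 6 libraries fall into 3 groups, so these values describe likeness over 3 points in the main.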

How the data were processed

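RNA was measured in 6 libraries of mouse cells labelled as neural progenitor cells. The deposited table held whole-number counts per gene for each library, not normalized; GRCm38.p6 and mm10 are the builds, and STAR and featureCounts the tools, in the submitters' processing notes. Per the labels' protocols, libraries were made with an ultra-low input or a TruSeq kit; which library used which, and how strand and multiply mapping reads were handled, was not given in the sources used here. Exon lengths and positions came from GENCODE M21 (GRCm38), which held 41869 of the 42365 gene IDs. Reads are not independent molecules, so precision was judged from the spread between libraries and, where the libraries of a clone were added, between clones.

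The tests used edgeR 4.0.16 under R 4.3.3: filterByExpr (minimum count of 10), TMM scaling and the robust quasi-likelihood test, with Benjamini-Hochberg adjustment over all genes at 0.05. For labelled knockout against parental, the 2 libraries of each clone were added (4 columns, 2 residual degrees of freedom); the clone comparisons were contrasts of 1 fit of 6 libraries (3 residual degrees of freedom). The SE is the log2 fold change divided by the square root of F. The tests were tried on simulated counts. Alternatives used other scalings, filters, DESeq2 1.42.0, limma 3.58.1, a replicate block, other units of replication and each library left out.

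All 10 genes are described; of each other list up to 4 genes with the smallest adjusted p are named, and 1 nearest profile per gene. The members and lists were chosen with earlier results of these data known. The E-box search was added after the data were seen. The targeted gene is not reported here. Skp1a, of the breakdown list, was not matched to a symbol in the table.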

Additional observations from a re-analysis of the deposited data

Results flagged for a closer look

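The effect against parental cells differed between the clones for 8 of the 10 genes, by the test of clone 2 against clone 1 in the fit of 6 libraries (edgeR's quasi-likelihood test, 2 libraries a clone); of all 23400 genes tested 36.4% were called. Ccnd1 and Ccnd2 were higher in clone 2, by 0.75 and 0.68 on the log2 scale. The log2 fold change of clone 2 over clone 1 was -0.54 for Ccne2, -0.50 for Cdkn1b, -0.30 for Cdkn2a, -0.23 for Cdk6, -0.19 for Cdkn2c and -0.11 for Cdk4. Cdk4 passed narrowly (adjusted p = 0.0406) and was called in 4 of 12 alternatives (adjusted p from 0.0277 to 0.467), Cdkn2c in 7 and Cdk6 in 10; the other 5 were called in all 12.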

How the results depend on the processing

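The direction of each of the 10 genes was the same in every alternative run, in all 4 comparisons. With labelled knockout against parental, Ccnd1, Ccnd2, Cdk6 and Cdkn2a were called in all 14 alternatives. The count of genes called was 3795 among genes of at least 5 CPM (8019 in clone 1 and 7847 in clone 2 against parental), where fewer genes were tested, and 13213 for the averaged clone effect over 6 libraries, where Ccne2 (adjusted p = 0.00108), Cdkn1b (3.39e-06), Myc and all 4 genes of CDK activation were called as well. With 1 library left out it ran from 2529 to 6714, lowest without parental library 2 (2529) or 1 (2544), and 4 to 8 of the 10 genes were called; the 4 without parental library 1 were Ccnd1, Ccnd2, Cdk6 and Cdkn2a, and Ccne1 joined them without library 2. Between the clones 5 to 7 of the 10 were called with 1 library left out, 5 without library 2 of clone 2. Without a filter Ccnd3 missed the threshold (adjusted p = 0.0901), as it did with a replicate block (0.0578), and Ccne2 and Cdkn1b passed in clone 2 (0.045 and 0.0117). The labels do not say that replicate numbers mark a shared day or batch. Differences between numbers correlated across genes at 0.217 between the clones, -0.222 between clone 1 and parental cells and -0.0457 between clone 2 and parental cells. Such values cannot exclude a shared day or batch, and the main tests used no pairing. With the replicate block 6843 genes were called for labelled knockout, 12412 for clone 2 and 12659 for clone 1 against parental, and 8449 between the clones. Upper quartile scaling shifted the median of all genes to -0.04 on the log2 scale, and no filter to -0.11 (to -0.20 in each clone against parental). Ccne1, with 44 to 202 counts, is the gene where depth limits precision most.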
